A study of Mus musculus with 7 samples.

Results

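Integrins are the receptors by which cells hold on to the matrix around them, and each consists of an alpha and a beta subunit that together decide which ligand is bound. Laminins are trimers of an alpha, a beta and a gamma chain and form the sheet of basement membrane that wraps every myofiber. A resting satellite cell, the stem cell of skeletal muscle, lies between that sheet and the fiber, where laminin-binding integrins that share the beta1 subunit (Itgb1) anchor it. Leukocytes carry another set, built on the beta2 subunit (Itgb2), with which macrophages and neutrophils adhere to vessel walls and to cell debris.

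All rows of the expression table whose gene symbol begins with Itga or Itgb, or with Lama, Lamb or Lamc followed by a digit, were taken, which gave 41 of 23930 genes. They comprise 17 alpha and 9 beta subunits of integrins, 4 genes that carry an integrin name without being a subunit (Itgb1bp1, Itgb1bp2, Itgb3bp and Itgbl1) and 11 laminin chains. The rule refers to the symbol and to no measured value. Of the 41 genes, 36 averaged at least 1 RPM (the reads of a gene scaled to the same sum of reads in each library) and 5 lay below it, among them Itgad, Itgb2l, Lama1 and Lamb3.

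The 7 libraries, 3 of normocapnia (NC1, NC2 and NC3) and 4 of hypercapnia (HC1, HC2, HC3 and HC4), whose values are always given in this order, were made from GFP-positive cells sorted from the digested hind leg muscles of inducible Pax7-GFP mice. All mice, controls included, received tamoxifen at 12 weeks of age, spent 4 weeks either in room air or in air enriched in CO2, and were collected at 16 weeks. They were littermates on a C57 background, and the number that follows C57BL in the labels differs from sample to sample. Cre is driven by Pax7, the transcription factor of satellite cells, so descendants of a labeled cell keep the reporter after Pax7 is lost. The methods of the study describe a cardiotoxin injury before collection, which the labels do not mention. The deposited table is named with a time that the methods give for cells in culture, whereas the labels speak of RNA isolated after sorting, and these cannot be told apart here. Libraries held 14527445 to 23388710 reads, so that 3 reads, taken here as the floor, correspond to 0.128 to 0.207 RPM. Each gene is read through a single amplicon whose yield is its own, and RPM values are therefore compared between libraries for a gene and not between genes.

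Whether the sorted cells were satellite cells was checked by markers. Pax7 stood at 268, 8.25 and 4.34 RPM in normocapnia and at 21.5, 20.1, 79.5 and 59.6 RPM in hypercapnia. The summed RPM of 10 satellite cell markers was 3300.2 in NC1 and between 98.2 and 1096 in the other 6 libraries, while 10 macrophage markers summed to 10824 in NC1, 17698 in NC2, 32959 in NC3 and 17873 to 22533 in hypercapnia. Lyz2 made up most of the macrophage sum, and without it the other 9 markers summed to 2470.4, 4385 and 3851 RPM in normocapnia and 3422 to 5805 RPM in hypercapnia. Endothelial markers (7 genes) summed to 89.1 to 242 in normocapnia, to 75.5 and 57.4 in HC1 and HC2 and to 567 and 434 in HC3 and HC4. Macrophage markers were thus read in every library, and the values of a group describe the sorted mixture, in which fewer cells of a type and less RNA per cell cannot be told apart. NC1 stood apart from the other libraries in its satellite cell markers, and for several members the value without it is also given. Within hypercapnia the libraries formed close pairs, HC1 with HC2 and HC3 with HC4. The chi-square of their reads per degree of freedom was 22.5 and 26.0 within these pairs and 98.5 to 123.8 between them. It was 337 to 475.5 among the controls. An SD over the 4 hypercapnia libraries therefore also holds the gap between the pairs. The SEs and p-values treat these 4 libraries as independent of each other, which was not tested. NC3 lay at 326 or more from every other library. Each control was closer to every hypercapnia library than to any other control. The distances to the hypercapnia libraries were 104.4 to 290.6 for NC1, 153 to 179 for NC2 and 326 to 431.3 for NC3.

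Hypercapnia was compared with normocapnia to ask whether the adhesion genes of the sorted cells differed after chronic CO2 exposure. By limma on log2(RPM + 1), 0 of the 41 genes were called at an unadjusted p under 0.05 with a fold change above 1.5, where 615 of all genes, or 2.57%, were called, 1.43% of all genes higher and 1.14% lower in hypercapnia, and 4.75% of those that averaged 1 RPM or more. At an unadjusted p under 0.05 alone, 2 of the 41 passed (Itgb1 and Itgb1bp1), against 4.66% of all genes. After Benjamini-Hochberg adjustment of this limma fit, no gene of the table passed (0.0%). By limma, 8 genes of the table passed without NC1 and 1 without NC3, none of them a member. The groups did not overlap for 3 members (Itgb1, Itgb1bp1 and Itgb5), or 7.32%, against 4.83% of all genes and 7.72% of those that averaged 1 RPM or more. On whole reads, edgeR and DESeq2 each called 1 of the 41 members, in both cases Itgb1. Among all genes tested, edgeR called 6.03% and DESeq2 5.45%. After adjustment 0 genes passed with edgeR and 29 with DESeq2, and no member was among them.

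The fitted log2 fold change was above 0 in 28 members and below 0 in 13, with a median of 0.16. The 28 are 68.3% of the members, against 53.7% of all genes and 62.1% of those that averaged 1 RPM or more. The median over all genes was 0.02. Among genes that averaged 1 RPM or more it was 0.16, and 0.26 for the 36 members at that level. Median-of-ratios scaling lowered the median of such genes to 0.04 and that of the 41 members to 0.08.

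**Figure D1:**
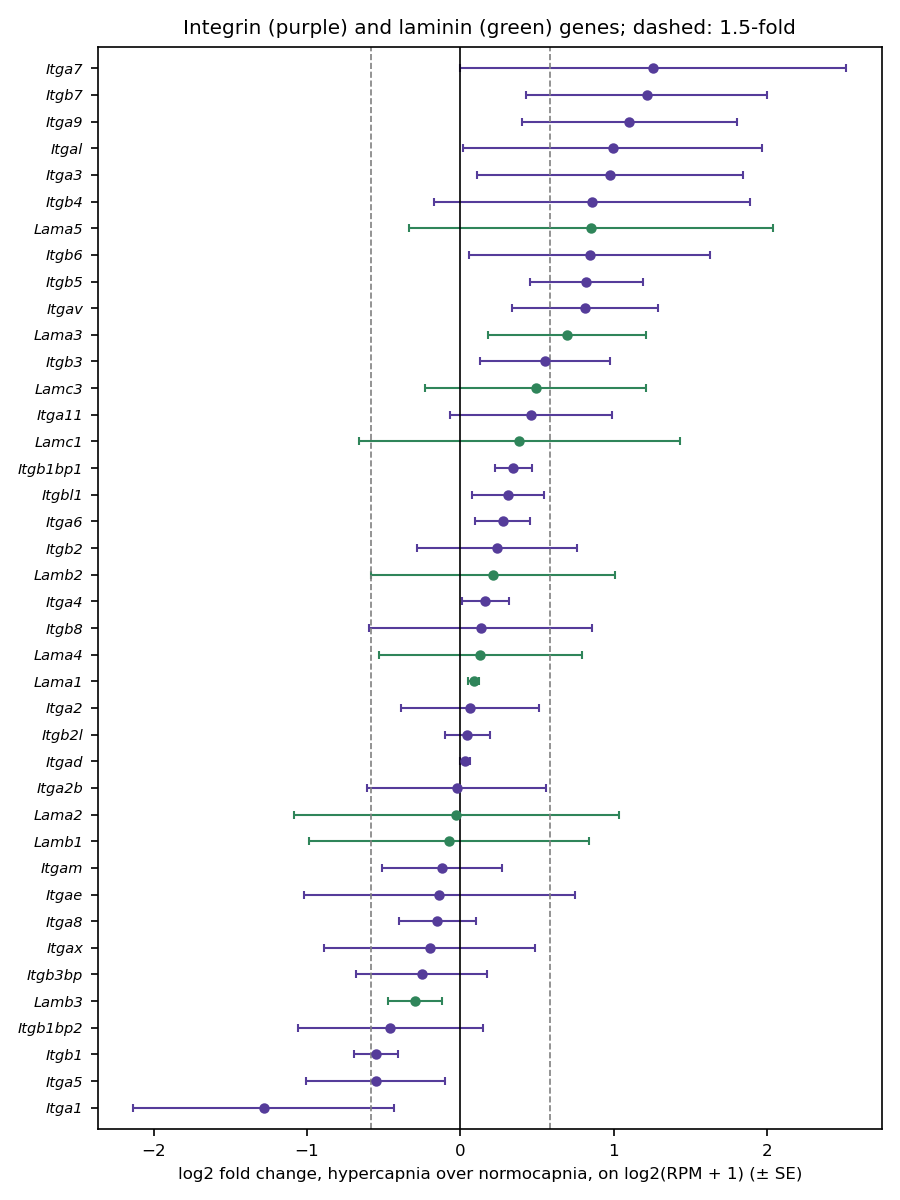
Log2 fold change of hypercapnia over normocapnia on log2(RPM + 1) for 40 of the 41 genes (points) with its SE (bars), integrin-named genes in purple and laminin chains in green, and dashed lines at a fold of 1.5. Itgb1 lies at -0.55 with a short bar, whereas Itga7 at 1.26 and Lama5 at 0.85 carry SEs of 1.26 and 1.19.

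Itgb1, the common partner of the collagen-, fibronectin- and laminin-binding alpha subunits, was the member with the smallest p. It measured 638, 466 and 640.2 RPM in normocapnia and 398, 348, 441 and 389.5 RPM in hypercapnia. All hypercapnia libraries lay below the lowest normocapnia library, although HC3 came close to NC2. The mean was 581 ± 99.9 RPM (SD, n = 3) in normocapnia and 394 ± 38.2 RPM (SD, n = 4) in hypercapnia. The log2 fold change of -0.55 ± 0.14 (SE) gave an unadjusted limma p of 0.0105 and an adjusted p of 0.836, and it stopped short of a 1.5-fold change. It was -0.69 after median-of-ratios scaling, with edgeR -0.71 (unadjusted p = 0.0496, adjusted p = 0.758) and with DESeq2 -0.76 (adjusted p = 0.455), each past that threshold. With genes that averaged under 1 RPM left out of the fit, it stayed at -0.55 but the unadjusted limma p was 0.0713. Leaving out single libraries kept the log2 fold change between -0.70 and -0.47.

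Itgb1bp1 encodes a cytoplasmic protein that binds the tail of the beta1 subunit and restrains its activation. It stood at 47.1, 64.0 and 62.9 RPM in normocapnia and at 75.7, 77.5, 69.4 and 70.8 RPM in hypercapnia, so that every hypercapnia library was above every normocapnia library. The log2 fold change was 0.35 ± 0.12 (SE), with an unadjusted limma p of 0.0308 and an adjusted p of 0.915, and it fell to 0.21 without NC1, the lowest library. It was 0.20 after median-of-ratios scaling, 0.17 with edgeR and 0.13 with DESeq2, none of which reached an unadjusted p under 0.05. With genes that averaged under 1 RPM left out of the fit, the unadjusted limma p was 0.214. The other 3 integrin-named genes ranged from 0.344 to 7.45 RPM, with overlapping groups.

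**Figure D2:**
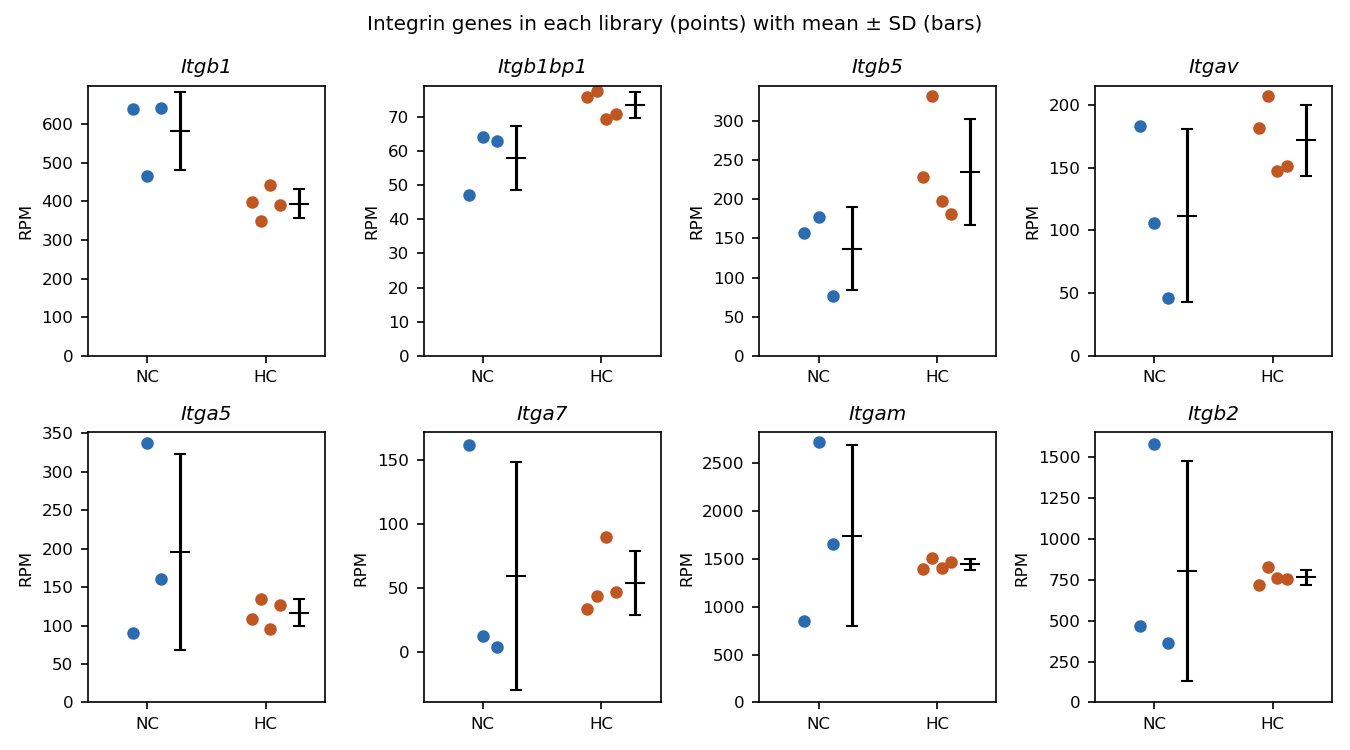
RPM of 8 integrin genes in each normocapnia (NC, blue) and hypercapnia (HC, orange) library, with the mean and SD of each group as black bars. The groups are apart for Itgb1, Itgb1bp1 and Itgb5, while the normocapnia libraries of Itga7, Itgam and Itgb2 spread around a narrower hypercapnia group.

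The beta subunits that pair with alpha-v (Itgav) form receptors for vitronectin, fibronectin and latent TGF-beta. Itgb5 measured 157, 177 and 76.3 RPM in normocapnia and 228, 332, 197 and 181 RPM in hypercapnia. Its groups did not overlap, with only a narrow gap between NC2 and HC4. The log2 fold change of 0.82 ± 0.37 (SE) had an unadjusted limma p of 0.0720 and did not pass the threshold, and it was 0.45 without NC3. With the replicate number as a block it was 0.93 and was called, where 2.5% of all genes were. Itgav itself stood at 183, 106 and 45.8 RPM in normocapnia and at 182, 207, 147 and 151 RPM in hypercapnia, so that NC1 lay among the hypercapnia libraries and the other 2 controls below them all. Its log2 fold change was 0.81 ± 0.48 (SE) with all libraries, 1.27 without NC1 and 0.28 without NC3. Itgb3, the partner of alpha-v in the vitronectin receptor and of alpha-IIb on platelets, was low, at 0.580, 0.428 and 0.964 RPM in normocapnia and 0.813, 0.402, 3.25 and 2.10 RPM in hypercapnia, where the 2 high values came from HC3 and HC4. Itgb6 and Itgb8, which bind latent TGF-beta, ranged from 0.069 to 6.42 RPM and from 0.895 to 9.23 RPM, and both were highest in NC1 and lowest in NC3.

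Among the alpha subunits that bind laminin, Itga6 and Itga7 behaved differently across libraries. Itga7, the laminin receptor of myoblasts and myofibers and a surface marker used to sort satellite cells, was 162, 12.2 and 3.58 RPM in normocapnia and 33.9, 44.0, 90.0 and 47.0 RPM in hypercapnia. Its normocapnia values spanned a 45.2-fold range and enclosed all hypercapnia values, which spanned 2.65-fold. The log2 fold change of 1.26 ± 1.26 (SE) was 2.72 without NC1, 0.14 without NC3, 0.08 with edgeR and 0.05 with DESeq2. Itga6, present on many cell types, was level by comparison, at 183, 193 and 174 RPM in normocapnia and 248, 280.5, 203 and 172 RPM in hypercapnia. Its groups overlapped through HC4 alone, and the log2 fold change was 0.28 ± 0.18 (SE). Itga3, an epithelial laminin receptor, ran from 2.75 RPM in NC3 to 44.8 RPM in NC1, with hypercapnia between 17.3 and 28.2 RPM, and Itgb4, the laminin-binding beta subunit of hemidesmosomes, ran from 2.06 RPM in NC3 to 25.1 RPM in HC3. The satellite cell markers described above were likewise highest in NC1 and lowest in NC3, and their part in the Itga7 and Itga3 values was not tested.

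The 3 alpha subunits of collagen receptors spread more widely in hypercapnia than in normocapnia. Itga1, which pairs with Itgb1 to bind basement membrane collagen, was 19.4, 24.4 and 35.5 RPM in normocapnia and 5.05, 2.61, 30.2 and 20.04 RPM in hypercapnia. HC1 and HC2 lay below every control, whereas HC3 and HC4 lay inside the control range. Its log2 fold change of -1.28 ± 0.85 (SE) was the most negative of the 41, with an unadjusted limma p of 0.186, and it ranged from -0.75 without HC2 to -1.79 without HC3. Itga2 and Itga11, receptors of fibrillar collagens, ranged from 1.05 to 5.28 RPM and from 2.27 to 11.2 RPM, and in both the 2 highest hypercapnia values were again HC3 and HC4.

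Of the subunits that recognize fibronectin and related ligands, Itga5, the classical fibronectin receptor, measured 90.3, 338 and 161 RPM in normocapnia and 109, 135, 96.0 and 127 RPM in hypercapnia. NC2 and NC3 were above all hypercapnia libraries and NC1 below them. The log2 fold change was -0.55 ± 0.45 (SE) with all libraries, -1.003 without NC1 and -0.06 without NC2. Itga8 varied little, from 17.0 to 35.3 RPM, and Itga2b, the platelet subunit, ranged from 1.38 to 6.91 RPM. Itga4, the VCAM-1 receptor subunit of leukocytes and myoblasts, was 99.8, 128 and 107 RPM in normocapnia and 154, 124, 117 and 106 RPM in hypercapnia, and the groups overlapped (log2 fold change 0.16 ± 0.15, SE). Itga9, which binds tenascin and osteopontin, was 16.2, 5.60 and 1.10 RPM in normocapnia and 12.4, 11.4, 12.7 and 12.9 RPM in hypercapnia. The 4 hypercapnia values lay within a 1.13-fold range, whereas the controls spread over 14.7-fold on both sides of them. Its log2 fold change was 1.10 ± 0.70 (SE) with all libraries, 1.84 without NC1 and 0.32 without NC3.

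Among the leukocyte integrins, Itgam, the complement receptor subunit of macrophages and neutrophils, stood at 847, 2721 and 1656 RPM in normocapnia and at 1391, 1509, 1398 and 1461 RPM in hypercapnia. Its partner Itgb2 was 469, 1579.9 and 366 RPM in normocapnia and 719, 827, 764 and 753 RPM in hypercapnia. For both, the hypercapnia libraries agreed within 1.08-fold and 1.15-fold and lay inside a control range of 3.21-fold and 4.32-fold, in which NC2 was the highest. The log2 fold changes were -0.12 ± 0.39 and 0.24 ± 0.52 (SE). Without NC2 they were 0.28 and 0.88, and that of Itgb2 was -0.17 without NC3, -0.16 with edgeR and -0.19 with DESeq2. The 7 neutrophil markers summed to 1469 RPM in NC2, against 236 to 514 RPM in the other 6 libraries, but this rested on Mmp9, and without it the other 6 markers summed to 91.8 RPM in NC2, 219 RPM in NC1 and 294 RPM in HC3. The part of neutrophil RNA in the Itgam and Itgb2 values was not tested.

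Itgax, the subunit of macrophages and dendritic cells, was 216, 99.8 and 33.0 RPM in normocapnia and 77.8, 46.2, 94.3 and 108 RPM in hypercapnia. Itgal, the ICAM receptor subunit of lymphocytes and other leukocytes, was 33.5, 24.6 and 1.72 RPM in normocapnia and 19.1, 17.1, 36.8 and 35.7 RPM in hypercapnia. Itgb7, the mucosal homing subunit, was 13.1, 36.9 and 3.23 RPM in normocapnia and 17.6, 27.9, 37.7 and 40.4 RPM in hypercapnia. In each of these genes NC3 was the lowest library, and the groups overlapped. The log2 fold change of Itgax turned from -0.20 to 0.43 without NC1, and that of Itgal from 0.99 to -0.16 without NC3. Markers of lymphocytes (5 genes) summed to at most 3.05 RPM in any library, and those of dendritic cells (6 genes) to 133 RPM in NC1 and 15.7 to 85.5 RPM elsewhere. Itgae, which pairs with Itgb7, ranged from 0.344 to 7.98 RPM, Itgb2l from 0 to 0.401 RPM, and Itgad was above 0 in HC1 alone, at 0.086 RPM, which is under the floor.

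**Figure D3:**
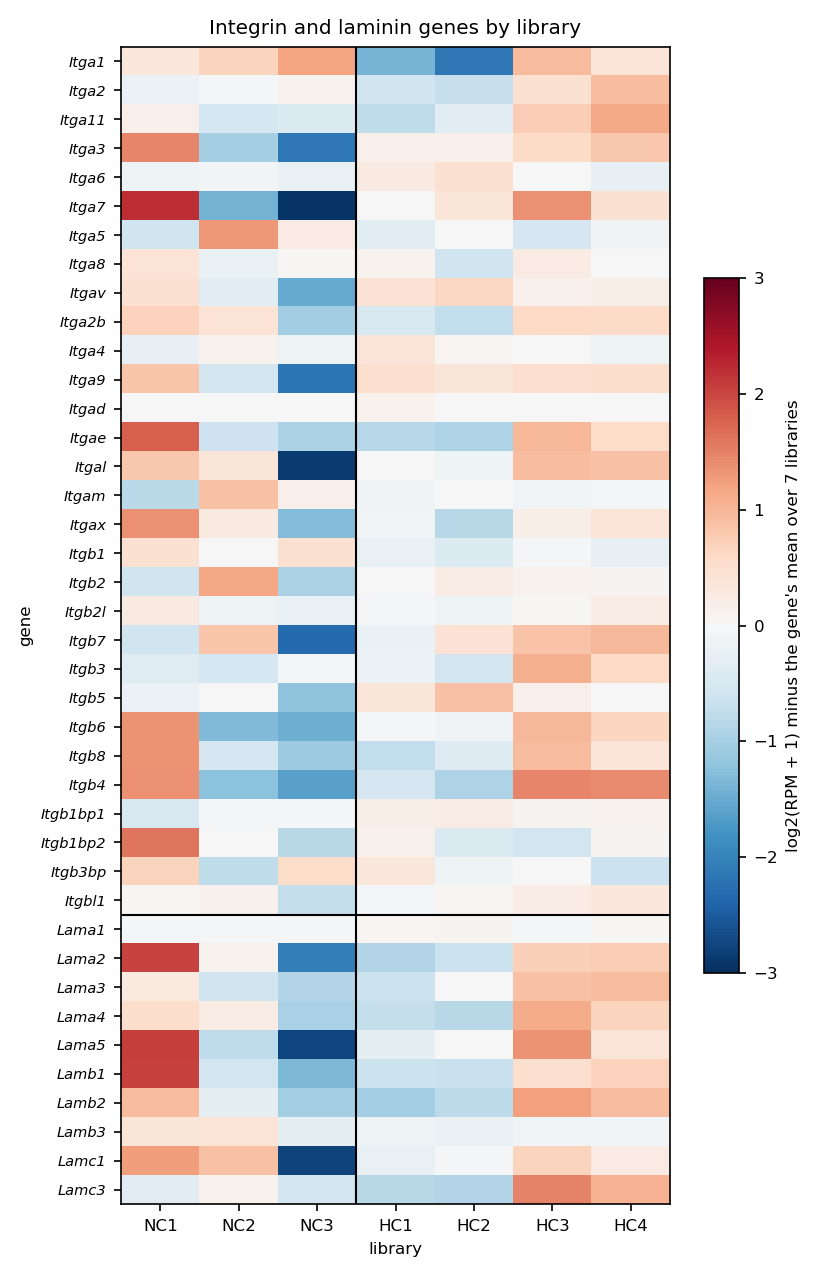
Heat map of log2(RPM + 1) minus the gene's mean over the 7 libraries, with 40 genes in rows (integrins above the line, laminins below) and libraries in columns (normocapnia left of the line), and red above and blue below the mean. NC1 is red and NC3 blue over most laminin chains, and HC3 and HC4 are redder than HC1 and HC2.

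None of the 11 laminin chains was called, and their groups overlapped in every case. The muscle laminin is assembled from Lama2, Lamb1 and Lamc1, and a loss of Lama2 causes congenital muscular dystrophy. Lama2 measured 30.3, 7.23 and 0.826 RPM in normocapnia and 3.21, 3.92, 11.6 and 12.0 RPM in hypercapnia. Lamb1 was 90.1, 13.9 and 7.71 RPM in normocapnia and 13.1, 13.0, 30.1 and 34.8 RPM in hypercapnia. Lamc1, shared by most laminins, was 98.1, 75.8 and 5.09 RPM in normocapnia and 34.9, 39.6, 65.6 and 48.7 RPM in hypercapnia. In all 3 chains NC1 was the highest and NC3 the lowest of the 7 libraries, with the hypercapnia values inside that range. Their log2 fold changes were -0.03 ± 1.06, -0.07 ± 0.91 and 0.38 ± 1.05 (SE), so that the error exceeded the difference. They were 0.98, 0.93 and 1.11 without NC1 and -1.07, -0.77 and -0.90 without NC3.

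Lama4, the alpha chain of vessel and nerve basement membranes, was 26.8, 21.7 and 8.88 RPM in normocapnia and 10.7, 9.85, 41.0 and 29.7 RPM in hypercapnia. Lama5, of mature vessels and epithelia, was 37.3, 4.40 and 0.344 RPM in normocapnia and 6.46, 8.24, 22.2 and 11.0 RPM in hypercapnia. Lamb2, which replaces Lamb1 at synapses and in vessels, was 56.6, 23.0 and 13.6 RPM in normocapnia and 13.7, 16.3, 68.9 and 54.8 RPM in hypercapnia. Each had HC3 and HC4 above HC1 and HC2 and overlapping groups, with log2 fold changes of 0.13 ± 0.66, 0.85 ± 1.19 and 0.21 ± 0.79 (SE). Each turned negative without NC3 (-0.32, -0.29 and -0.24). The remaining chains were scarce. Lama3 and Lamb3, chains of a laminin of the skin, ranged from 0 to 2.57 and from 0 to 0.599 RPM. Lamc3 ranged from 0.10 to 4.69 RPM, and Lama1, the embryonic alpha chain, did not pass 0.10 RPM in any library, which is under the floor.

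Counted over the set, 26 of the 41 genes (63.4%) were lowest in NC3, against 29.4% of all genes and 48.9% of those that averaged 1 RPM or more. For the laminin chains this was 9 of 11 (81.8%). NC1 was the highest library for 17 of the 41 (41.5%), against 24.0% of all genes and 31.4% of those that averaged 1 RPM or more. HC3 and HC4 were both above HC1 and HC2 for 27 of the 41 (65.9%) and for 10 of the 11 laminin chains (90.9%), against 30.9% of all genes and 44.5% of those that averaged 1 RPM or more. These counts are descriptions of 7 libraries and were not tested. The summed RPM of myofiber markers (7 genes) was 3903 in NC1 and 191 in NC3, and that of pericyte and smooth muscle markers (6 genes) was 1772 in NC1, 123 in NC3, 202 and 154 in HC1 and HC2 and 708 and 506 in HC3 and HC4. Acta2 made up most of the latter, and without it the other 5 summed to 98.8 RPM in NC1, 32.1 RPM in NC3 and 183 RPM in HC3, the highest library. Fibro-adipogenic markers (6 genes) summed to 1767, 1289 and 1034 RPM in normocapnia and to 1035, 935, 1825 and 2230.3 RPM in hypercapnia, and without Dcn to 1238, 723 and 144 RPM and to 847, 766, 775 and 875 RPM. The part of these cell type markers in the laminin values was not tested.

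**Figure D4:**
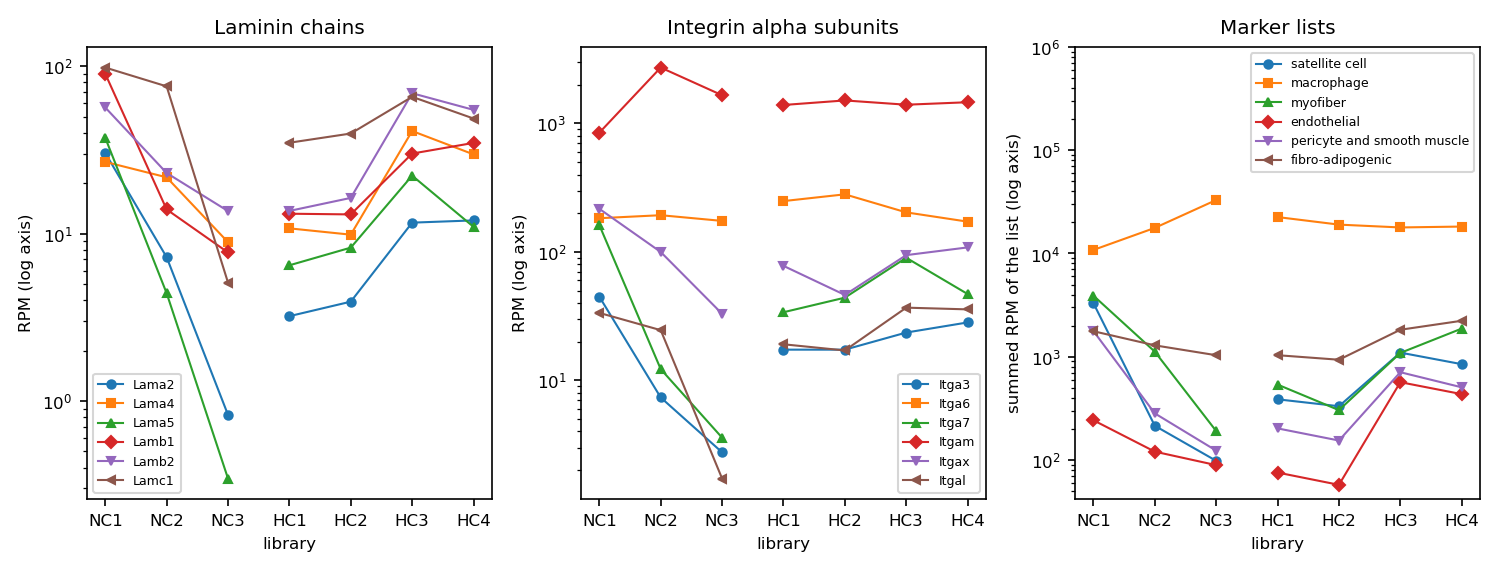
RPM of 6 laminin chains (left) and 6 integrin alpha subunits (middle) and summed RPM of 6 marker lists (right) in each library, all on log axes, with lines joining the libraries of a condition only to guide the eye. Lama2 runs from 30.3 RPM in NC1 to 0.826 RPM in NC3, and the satellite cell markers from 3300.2 to 98.2 RPM, while Itga6 stays between 172 and 280.5 RPM.

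The groups differed in their spread. The median SD of log2(RPM + 1) over the 41 genes was 0.84 in normocapnia and 0.40 in hypercapnia, and the normocapnia SD was the larger for 28 of the 41 (68.3%), against 59.6% of all genes and 81.1% of those that averaged 1 RPM or more. Without NC1, 7 of the 41 members were called, where 8.32% of all genes were. The 7 members all averaged at least 1 RPM, and the share among all genes at that level was not counted for this setting. They were Itga7 (log2 fold change 2.72), Lama5 (2.13), Itga3 (1.98), Itga9 (1.84), Itgb6 (1.75) and Itgav (1.27), all higher in hypercapnia, and Itga5 (-1.003), lower. None of the 7 passed after adjustment, with adjusted p from 0.207 to 0.431 by limma. Without NC2, Itgb1 (-0.70), Itgb2 (0.88) and Itgb7 (1.98) were called, where 5.04% of all genes were. With all libraries the values were 0.97 for Itga3, 0.84 for Itgb6 and 1.21 for Itgb7, and without NC3 they were 0.18, 0.35 and 0.40. Without NC3, Lamc1 was called in the opposite direction to its value with all libraries (-0.90), where 2.57% of all genes were.

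The partners of integrins and laminins were examined through 5 lists, of which 76 of 79 genes had a row that was used. Across them 3 genes were called (3.95%, against 2.57% of all genes and 4.75% of those that averaged 1 RPM or more, as 73 of the 76 did), 1 higher and 2 lower, and the median log2 fold change was 0.12. In the list of integrin activation and focal adhesion, 1 of 32 genes was called. This was Crkl, an adaptor that links phosphorylated focal adhesion proteins to small GTPases, which fell from 33.6, 20.9 and 31.5 RPM in normocapnia to 16.9, 16.8, 20.5 and 18.4 RPM in hypercapnia. Every hypercapnia library was below every control, by a narrow gap at NC2 and HC3, and the log2 fold change was -0.61 ± 0.18 (SE) with an unadjusted limma p of 0.0164 and an adjusted p of 0.909. The call was lost without NC1 (-0.48), NC3 (-0.53), HC1 (-0.58) or HC2 (-0.57), where the fold lay under 1.5 in each case. Tln1, whose product talin switches integrins to their active state, was 202, 382 and 72.3 RPM in normocapnia and 276, 342, 239 and 205 RPM in hypercapnia. Fermt3, the kindlin of blood cells, which works beside talin, was 60.1, 134 and 35.6 RPM and 125, 121, 75.2 and 76.8 RPM. Both overlapped between groups, with log2 fold changes of 0.55 ± 0.58 and 0.54 ± 0.49 (SE). Without NC3 they were -0.09 and 0.11, and without NC2 1.10 and 1.05, the last of which was called.

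Among 15 integrin ligands, 9 had a log2 fold change above 0 and 6 below. In this list 1 gene was called higher and 1 lower, where 2.57% of all genes and 4.75% of those that averaged 1 RPM or more were called. Both called genes lay below the level of 10 RPM in most libraries and were named after their values were seen. Icam2, a ligand of the leukocyte integrins on endothelium, was 3.21, 4.23 and 1.45 RPM in normocapnia and 7.49, 6.73, 10.6 and 6.03 RPM in hypercapnia (log2 fold change 1.18 ± 0.31, SE; limma adjusted p = 0.843). Cdh1, the epithelial cadherin bound by the integrin that contains Itgae, was 9.23, 26.9 and 3.65 RPM in normocapnia and 1.20, 2.11, 2.62 and 1.96 RPM in hypercapnia (-1.91 ± 0.62, SE; limma adjusted p = 0.915). Both lost the call with the replicate number as a block, and Cdh1 also without NC1, HC1, HC2 or HC4, with folds between -1.96 and -1.77 on the log2 scale. The groups were apart in both, or 13.3% of the 15, against 4.83% of all genes and 7.72% of those that averaged 1 RPM or more. Fibronectin (Fn1) was 1725, 4402 and 1666 RPM in normocapnia and 1359, 975, 1959 and 2032 RPM in hypercapnia, and osteopontin (Spp1), a ligand of alpha-v integrins, 2588, 3973 and 3138 RPM against 8888, 4709, 3505 and 3659.5 RPM. The groups overlapped in both, with HC1 the highest library for Spp1.

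Of 11 laminin receptors other than integrins 0 were called, and of 11 basement membrane partners 0 were called. Dag1, whose product dystroglycan ties laminin to the cytoskeleton of the fiber, was 1087, 109 and 29.8 RPM in normocapnia and 146, 142, 345 and 232 RPM in hypercapnia. Nid1, which links the laminin and collagen networks, was 118, 103 and 19.5 RPM and 36.9, 31.7, 111 and 115 RPM. As for Lama2, Lamb1 and Lamc1, NC1 was the highest and NC3 the lowest library for both, and NC1 was the highest for 10 of the 11 receptors and 9 of the 11 partners. For Dag1 the log2 fold change was 0.39 ± 1.25 (SE) with all libraries, 1.80 without NC1 and -0.77 without NC3. Of 7 tetraspanins and other integrin neighbors 0 were called, among them Cd9 (914, 639.9 and 187 RPM in normocapnia and 495, 309, 459 and 445 RPM in hypercapnia) and Cd81 (265, 88.9 and 291 RPM in normocapnia and 76.4, 74.2, 196 and 179 RPM in hypercapnia), which hold integrins in membrane clusters. The log2 fold change of Cd9 was -0.19 with all libraries, 0.28 without NC1 and -0.86 without NC3. The last was called, where 2.57% of all genes were.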

How the data were processed

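RNA of FACS-sorted GFP-positive cells was made into AmpliSeq libraries and read on an Ion S5 Plus. The RPM values were deposited by the authors as the reads of a gene scaled to the same sum in each library. The aligner is not given in the sources used here, and neither are amplicon positions or the genome build. Whole reads were recovered from the RPM steps for 100% of values (tolerance 0.05 reads), and their totals gave the depth of each library; 2443 of 23930 genes were at 0 in all 7 libraries. Counting error only sets the floor of 3 reads.

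Groups follow the labels, which do not state that each library is a separate mouse, so p-values measure the spread between libraries. limma 3.58.1 in R 4.3.3 was fitted, two-sided and unfiltered, to log2(RPM + 1) of all genes, and genes were called at an unadjusted p under 0.05 and a fold above 1.5, with Benjamini-Hochberg adjustment over all genes beside it. Fold changes are on the log2(RPM + 1) scale, which understates those of low genes. Alternatives were pseudocounts of 0.1 and 5 RPM, median-of-ratios scaling, a filter on genes that averaged under 1 RPM, edgeR 4.0.16 (quasi-likelihood, TMM) and DESeq2 1.42.0 on whole reads, the replicate number as a block, and leaving out each library. The fits were tested on simulated counts, with 200 of the genes that averaged 10 RPM or more changed 4-fold. At a dispersion (spread beyond counting error) of 0.02, each tool called 100% of these. At 0.4, limma called 63.5%, edgeR 78% and DESeq2 82.4%, so that limma can miss a 4-fold change in a variable gene. No library repeated another within counting error. Members, gene lists and tests were chosen with earlier results of these data known. Named genes are the integrin and laminin genes set by list, members with groups apart or called at a mean of at least 1 RPM, and partners set by list or called at a mean of at least 10 RPM. Itga10, Ilk, Rpsa and Sgca were not analysed here. An item among the members is not reported here, although the counts over the members include it.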

Additional observations from a re-analysis of the deposited data

How the results depend on the processing

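With all libraries, 0 members were called. The count was 1 with a pseudocount of 0.1 RPM (Lama1, 0.66, under the floor of 3 reads, where 3.52% of all genes were called), with median-of-ratios scaling (2.55%), with edgeR (6.03%) and with DESeq2 (5.45%; Itgb1 in each, lower), and with the replicate block (Itgb5, 0.93, higher; 2.5%), and 0 to 7 with single libraries left out (0 to 6 higher and 0 to 1 lower). With a filter at a mean of 1 RPM, 0 members reached an unadjusted p under 0.05. The 3 called partner genes became 1 under the replicate block and 1 to 8 with single libraries left out (8 without NC1, 7 without NC2, 1 without HC1 or HC2), where calls over all genes went from 615 to 598 under the block, 1990 without NC1, 1205 without NC2, 385 without HC1 and 376 without HC2. Icam2 (1.27) and Cdh1 (-1.91) were not called under the replicate block, and Cdh1 was not called without NC1, HC1, HC2 or HC4. Crkl was not called with a pseudocount of 5 RPM (-0.52), with the filter, or without NC1, NC3, HC1 or HC2. The replicate block leaves HC4, which has no partner, without weight. Same-numbered libraries deviated from their group means with correlations of -0.349, 0.503 and -0.0443, so the numbers were not taken to pair the libraries.

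Log2 fold changes turned in sign as follows, and the cause was not tested. With edgeR and DESeq2 they were -0.162 and -0.190 for Itgb2, -0.0332 and -0.0592 for Lama5, -0.262 and -0.287 for Lamc1, -0.719 and -0.754 for Dag1 and -0.127 and -0.161 for Nid1, and with DESeq2 -0.0066 for Itga4. With median-of-ratios scaling they were -0.0017 for Lama4 and -0.135 for Nid1, with a pseudocount of 0.1 RPM 0.157 for Lama2, with 5 RPM -0.0152 for Nid1, and under the replicate block -0.0733 for Lama4, -0.0630 for Lamb2 and -0.289 for Nid1. With single libraries left out, the values ran from -0.157 to 1.68 for Itgal, from -0.561 to 0.281 for Itgam, from -0.907 to 0.432 for Itgax and from -0.171 to 0.883 for Itgb2. For laminin chains they ran from -1.07 to 0.978 (Lama2), from -0.319 to 0.428 (Lama4), from -0.291 to 2.13 (Lama5), from -0.768 to 0.925 (Lamb1), from -0.237 to 0.752 (Lamb2) and from -0.897 to 1.11 (Lamc1). For partners they ran from -0.0914 to 1.10 (Tln1), from -0.772 to 1.80 (Dag1), from -0.812 to 0.457 (Nid1) and from -0.863 to 0.28 (Cd9). Of the values of single genes under the alternatives, 416 kept direction and call and 45 turned in sign. Among those that kept their sign, 17 gained a call and 12 lost it. Lamc1 without NC3 is counted among those that turned in sign, although it was also called. Depth limits the members near the floor of 3 reads, under which Itgad and Lama1 stayed in all libraries.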

Other observations

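Ratios of RPM within a library, chosen after the values were seen and not tested, set 2 integrin genes against each other without the scaling between libraries. The ratio of Itgb2 to Itgb1 was 0.735, 3.39 and 0.572 in normocapnia and 1.81, 2.38, 1.73 and 1.93 in hypercapnia, with NC2 above all hypercapnia libraries. The ratio of the fibronectin receptor subunit Itga5 to Itgav was 0.493, 3.18 and 3.51 in normocapnia and 0.60, 0.652, 0.653 and 0.842 in hypercapnia, so that NC1 lay beside the hypercapnia libraries and NC2 and NC3 stood apart. Itga7 over Itga6 was 0.884, 0.0634 and 0.0205 in normocapnia and 0.136, 0.157, 0.443 and 0.273 in hypercapnia, and Itgam over Itgax 3.91, 27.3 and 50.2 in normocapnia and 17.9, 32.6, 14.8 and 13.5 in hypercapnia. Since every gene has its own amplicon, the size of a ratio has no meaning by itself, and only its change between libraries can be read.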
